A study of Arabidopsis thaliana with 10 samples.

Results

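The WRKY transcription factor genes of Arabidopsis thaliana were examined for sites of LIMYB, a MYB-domain protein that acts downstream of the receptor kinase NIK1 in antiviral signalling. The members were 60 WRKY genes given by locus identifier, out of 27444 nuclear protein-coding genes in the RefSeq table. They need not be the whole family, and all 60 names were found in that table by symbol or synonym. Any peak that the authors had assigned to one of these identifiers was taken, and a member with no such entry counted as having no assigned peak. This gave 22 peaks at 20 members in line L1, 20 peaks at 16 members in line L4 and 0 in line L3. Of the 60 genes, 10 carried a peak in both L1 and L4, 10 in L1 only and 6 in L4 only, and 34 had no assigned peak.

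Chromatin was immunoprecipitated with an anti-GFP antibody from seedlings grown for up to 12 days, and the DNA was sequenced. All plants carried a YFP-LIMYB transgene and are labelled as LIMYB overexpression lines, and the lines were L1 (2 samples), L3 (4 samples) and L4 (4 samples). The labels do not give the promoter of the transgene or say whether the lines are independent insertions, and no input, control immunoprecipitation or line without the transgene is among the samples. A tagged protein made in excess and a whole-seedling sample limit what a site says about LIMYB at its normal level or in any cell type. Each line had a single peak list, of 9759 peaks in L1, 12 in L3 and 9145 in L4, so no value below carries a replicate error and no difference between lines was tested. The 12 peaks of L3 were all outside the nuclear chromosomes, where every WRKY gene lies, so L3 is not used further.

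WRKY proteins are plant transcription factors named for a short conserved peptide in their DNA-binding domain, which is followed by a zinc finger. They bind the W-box, an element found in the promoters of many defence genes and of WRKY genes themselves. Group I proteins usually carry a pair of WRKY domains, group II proteins carry a lone domain and are split into IIa to IIe, and group III proteins have a different zinc finger. In leaves and seedlings many of them are switched on within minutes to hours of contact with microbial patterns, downstream of MAP kinase cascades, and some restrain defence while others promote it. Others act in seed, trichome, root and senescence programmes.

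At the authors' threshold, WRKY genes carried an assigned peak about as often as genes in general, and the peaks lay mainly inside the genes. An assigned peak was present at 20 of 60 members (33.3%) in L1, where 25.7% of all genes had one. In L4 it was present at 16 members (26.7%), against 24.4% of all genes. Both lines had an assigned peak at 10 members (16.7%), against 14.3% of all genes. At this threshold the shares are near those of all genes and are not a result about the family. They lay farther apart among stronger peaks: with folds above the list's median, 26.7% of members in L1, 20% in L4 and 13.3% in both lines had a peak, against 14.8%, 14.2% and 7.03% of all genes. With a −log10 q of at least 10, both lines had a peak at 13.3% of members, against 7.35% of all genes. No test was run on these differences.

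**Figure D1:**
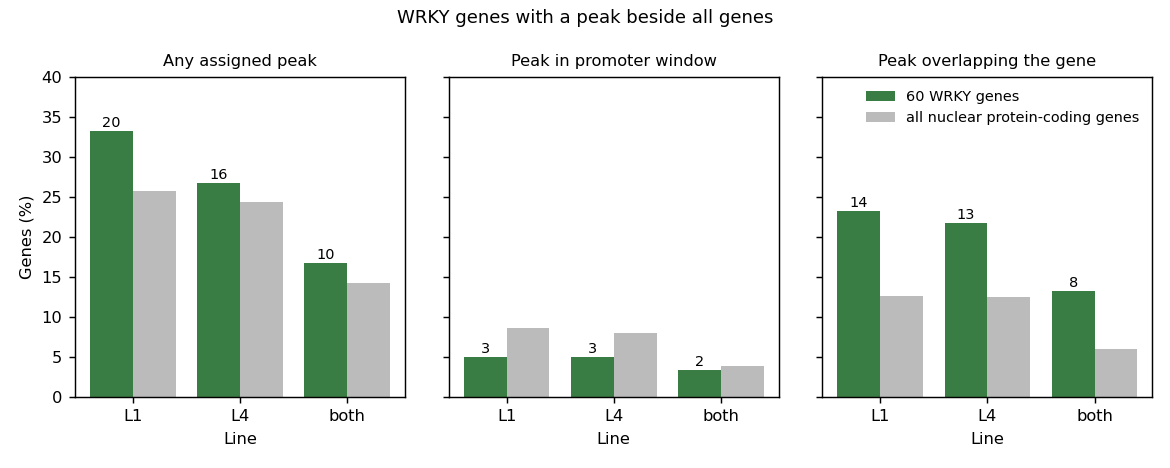
Share of genes (%) with any assigned peak, with a peak in the promoter window, and with a peak that overlaps the gene, in L1, L4 and both lines. Green bars are the 60 WRKY genes, with the number of genes above each bar, and grey bars are all 27444 nuclear protein-coding genes. The green bars exceed the grey ones most for peaks overlapping the gene, where 8 WRKY genes (13.3%) stand beside 5.97% of all genes in both lines, and lie below them for the promoter window.

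Promoter peaks were found at 3 WRKY genes in L1 and at 3 in L4. A promoter peak was one that touched the stretch between 1000 bp before and 100 bp after the annotated 5′ end of its assigned gene. In L1 this held for 3 members (5%), WRKY6, WRKY40 and WRKY67, against 8.67% of all genes. In L4 it held for 3 members (5%), WRKY11, WRKY40 and WRKY67, against 8.04% of all genes. WRKY40 and WRKY67 had one in both lines (3.33%), against 3.83% of all genes, which is again near the background. The lower shares in L1 and L4 were not seen among stronger peaks. With folds above the list's median, promoter peaks were at 5% of members in L1, 5% in L4 and 3.33% in both lines. Among all genes these shares were 4.67%, 4.25% and 1.74%. No test was run on these small counts.

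A larger share of WRKY genes than of all genes had a peak on the gene itself. A peak overlapped the gene at 14 members in L1 (23.3%), where 12.6% of all genes had one, and at 13 members in L4 (21.7%), where 12.5% did. In both lines 8 members had such a peak (13.3%), against 5.97% of all genes, and in either line 19 did (31.7%), against 19.1%. Of the 22 member peaks of L1, 14 lay wholly inside the gene (63.6%), 5 upstream, 2 downstream and 1 across the 5′ end. Of the 20 member peaks of L4, 14 lay inside (70.0%), 5 upstream and 1 across the 5′ end. Over the whole nuclear lists the inside share was 26.0% of L1 peaks and 27.8% of L4 peaks.

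These shares carry no test, and the lines are not separate counts of sites, since 8 of the inside positions, in 7 genes, were shared by L1 and L4. Among nuclear peaks on or within 5000 bp of their assigned gene, a comparison set chosen after the values were seen, 31.1% in L1 and 32.9% in L4 lay inside. No member peak was farther from its gene than 3667 bp. Gene length differed somewhat between the compared sets. In the RefSeq table the median was 2196.5 bp for the 60 members and 2078 bp for all genes. It was 2532 bp for the 19 members with a peak on the gene in either line and 2110 bp for the other 41. All genes with such a peak likewise had a higher median, 2376 bp. The part of gene length in the result was not tested.

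**Figure D2:**
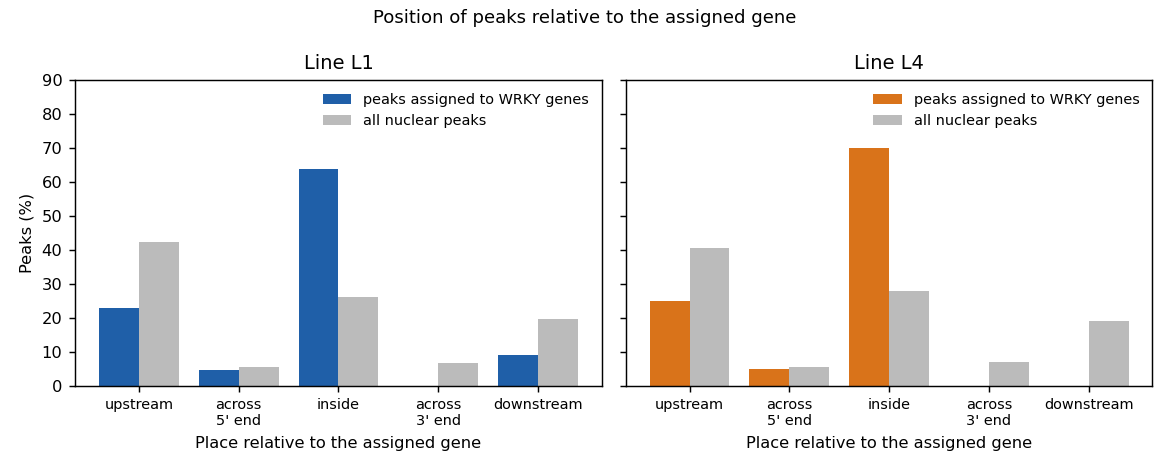
Share of peaks (%) by place relative to the assigned gene, in L1 (left, 22 WRKY peaks and 9604 nuclear peaks) and L4 (right, 20 and 8952). Coloured bars are peaks assigned to WRKY genes and grey bars all nuclear peaks; inside the gene, the WRKY share is 63.6% in L1 and 70.0% in L4 beside 26.0% and 27.8%.

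Summits of the inside peaks assigned to members spanned the middle part of the genes. A site inside WRKY20 that was assigned to its neighbour, described below, is not among them. The median lay at 43.6% of the length in L1 and 51.6% in L4, beside 45.5% and 45.6% over all inside peaks. How many of all inside peaks fell in the members' range was not counted. In L1 the inside summits lay 610 to 2139 bp from the 5′ end (median 1194), at 25.4% to 74.8% of the gene's length. In L4 they lay 548 to 2187 bp from it, at 22.8% to 74.9% of the length. Summits in the 5′ part, up to 50% of the length, numbered 8 of 14 in L1 (57.1%) and 6 of 14 in L4 (42.9%), against 56.7% and 56.4% of all inside peaks. The files give gene bounds but no exons, so exon and intron were not told apart here.

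**Figure D3:**
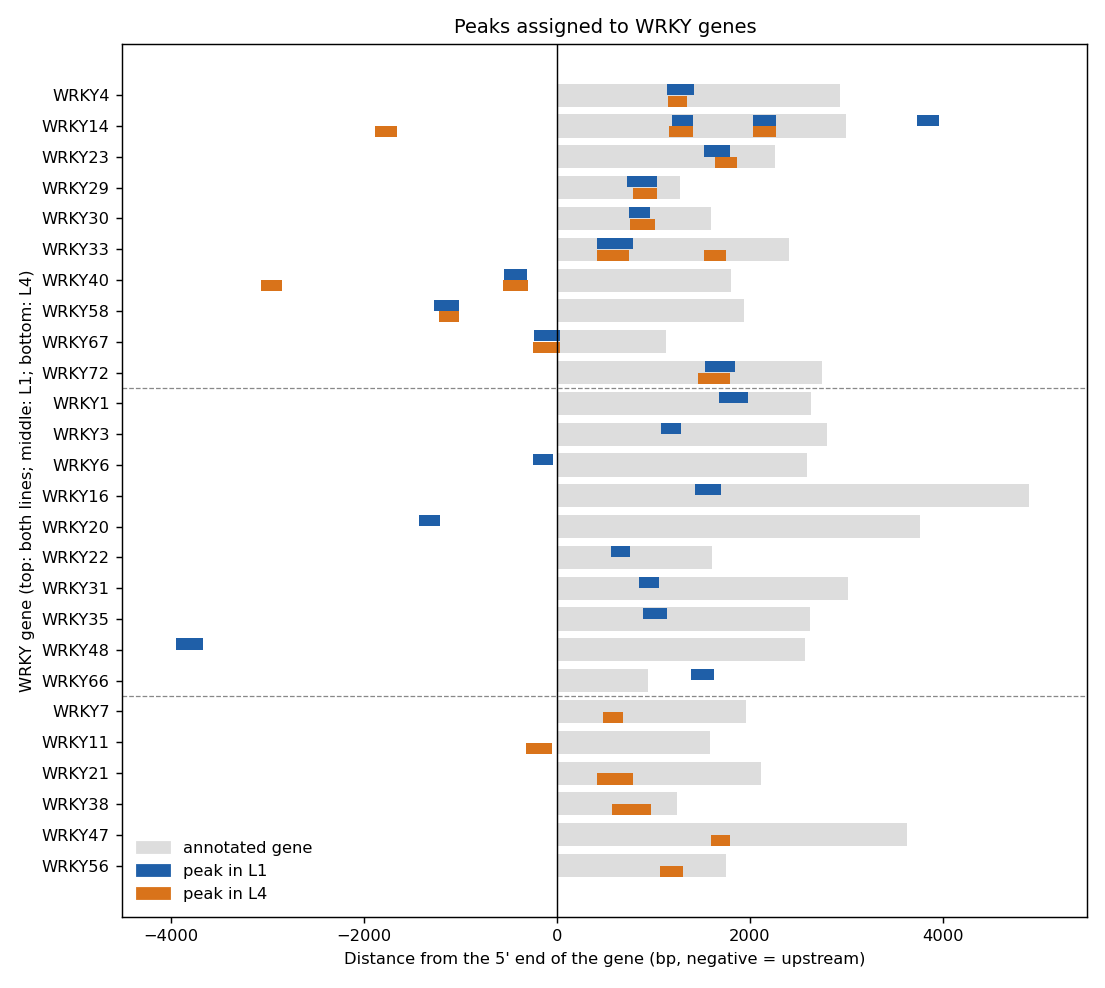
Map of all 42 peaks assigned to 26 WRKY genes, as distance in bp from the annotated 5′ end (negative is upstream). Grey bars are the genes, blue blocks peaks of L1 and orange blocks peaks of L4. The 10 genes at the top have overlapping blocks of both colours, 7 of them inside the gene, and 4 of the 26 genes have a block in the promoter window.

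The 10 members with a peak in both lines had overlapping peaks, as did most genes with a peak in both lines. Their peaks overlapped in 10 of 10 genes, while among all genes with a peak in both lines 85.9% (3378 of 3931) had overlapping peaks. Overlapping peaks in both lines were thus present at 16.7% of members and at 12.3% of all genes. At the authors' threshold these shares are near those of all genes, and no test was run. The 11 overlapping pairs had summits 2 to 124 bp apart (median 16), beside a median of 23 bp over all 4147 pairs. In 7 of the 11 pairs the summits were within 25 bp, a share that was not counted over all pairs.

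The values given with each site are the authors' own. The fold is the peak caller's ratio of the signal to a local background, the pileup is the number of overlapping fragments at the summit, and the q-value is on a −log10 scale. A fold describes a peak within its own list: the median over nuclear peaks was 8.72 in L1 and 11.65 in L4. Sequencing depth per sample is unknown.

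WRKY33 and WRKY29, of the pattern-triggered branch of immunity, had shared sites inside the gene. WRKY33 (AT2G38470), a substrate of MAP kinases that drives camalexin synthesis and resistance to necrotrophic fungi, had an L1 peak on chromosome 2 at 16108781 to 16109147 and an L4 peak at 16108779 to 16109106. Both lay inside the gene (16108361 to 16110766), and their summits were 610 and 548 bp from the 5′ end. The fold was 12.67 in L1 with a pileup of 37, and 10.36 in L4 with a pileup of 23. These folds were above the median of the list in L1 and below it in L4. A further L4 peak, with a fold of 7.73, lay 1658 bp into the gene and overlapped no L1 peak.

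WRKY29 (AT4G23550), which acts downstream of a MAP kinase cascade triggered by flagellin, had a site towards the 3′ end of the gene. Its peaks lay on chromosome 4 at 12292550 to 12292859 in L1 and 12292610 to 12292860 in L4, with folds of 14.49 and 13.53. Their summits, 885 and 869 bp from the 5′ end, lay 16 bp apart in a gene of 1277 bp. WRKY22 (AT4G01250), its partner in the flagellin response, had an inside peak in L1 with a fold of 8.35, just below the list's median, and had none assigned in L4.

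WRKY4, WRKY72 and WRKY30, also linked to defence, had shared inside sites. WRKY4 (AT1G13960), which with WRKY3 supports resistance to necrotrophs, had the member peak with the highest fold in L1. That peak, on chromosome 1 at 4777602 to 4777888, had a fold of 21.25 and a pileup of 51, higher than or equal to 98.3% of nuclear peaks of L1. In L4 the site had a fold of 11.68 and a pileup of 15, at the 54.3rd percentile, while the summits were 2 bp apart. WRKY3 (AT2G03340) had an inside peak in L1 with a fold of 9.57 and none assigned in L4. Its summit lay 1137 bp from the 5′ end, beside 1251 bp for WRKY4 and a median of 1059 bp over all inside L1 peaks.

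WRKY72 (AT5G15130), a contributor to basal defence in Arabidopsis and tomato, had a fold of 13.58 in L1 and of 22.3 in L4. The peaks lay on chromosome 5 at 4905887 to 4906197 and 4905811 to 4906142, 1735 and 1611 bp into the gene by summit. This gap of 124 bp was the widest among the 11 pairs. WRKY30 (AT5G24110), a gene induced early in defence and oxidative stress, had folds of 11.49 and 17.12, with a pileup of 22 in each line. Its peaks lay on chromosome 5 at 8153745 to 8153960 and 8153689 to 8153949, near the middle of the gene.

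WRKY14 (AT1G30650), of group IIe, had 3 peaks in each line. A pair of sites inside the gene on chromosome 1 was common to both lists. The stronger, at 10870333 to 10870578 in L1 and 10870333 to 10870572 in L4, had folds of 15.97 and 16.84 and pileups of 38 and 32. The weaker, at 10869503 to 10869710 and 10869468 to 10869719, had folds of 8.12 and 10.53, both below the median of their list. The remaining peak differed: in L1 it lay downstream of the gene (fold 9.43) and in L4 1735 bp upstream (fold 10.11). Genes with 3 or more assigned peaks in both lines made up 0.634% of all genes (174), and 0.0911% (25) when peaks were on or within 5000 bp of the gene. WRKY14 was in both counts, which were made after its values were seen.

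WRKY23 (AT2G47260), an auxin-responsive gene of root development, had weak sites at the same place in the 3′ part of the gene. Its folds were 6.72 in L1 and 10.9 in L4, with pileups of 16 and 14, and both folds lay below the median of their list. The summits were 3 bp apart, 1694 and 1697 bp from the 5′ end, on chromosome 2 at 19405289 to 19405555 and 19405215 to 19405443.

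The shared sites outside genes were at WRKY40, WRKY58 and, across the 5′ end, WRKY67. WRKY40 (AT1G80840), a repressor of immune and abscisic acid responses that acts with WRKY18 and WRKY60, had its peaks on chromosome 1 at 30383145 to 30383386 in L1 and 30383139 to 30383394 in L4. The fold was 13.51 with a pileup of 30 in L1 and 19.4 with a pileup of 26 in L4. Summits lay 465 and 454 bp upstream of the 5′ end. L4 had another peak, with a fold of 11.39, 2891 bp upstream. NRAMP1, for a metal transporter, precedes WRKY40 in the order of genes, and neither peak overlapped a gene named in the lists.

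WRKY67 (AT1G66550), of group III, had the member peak with the highest fold in L4, 25.93, with a pileup of 42. Its L1 peak had a fold of 16.07 and a pileup of 36. These peaks crossed the 5′ end of the gene on chromosome 1, at 24828257 to 24828536 in L4 and 24828270 to 24828535 in L1, with summits 75 and 80 bp upstream. They stood at the 96.8th percentile of nuclear folds in L4 and the 93.5th in L1. WRKY64, a related gene, is next to WRKY67 on the chromosome, and whether reads are shared between such copies was not examined. WRKY58 (AT3G01080), a negative regulator of systemic acquired resistance, had folds of 10.38 and 13.33. Its peaks ended 1017 and 1013 bp from the gene, so they fell just outside the promoter window.

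**Figure D4:**
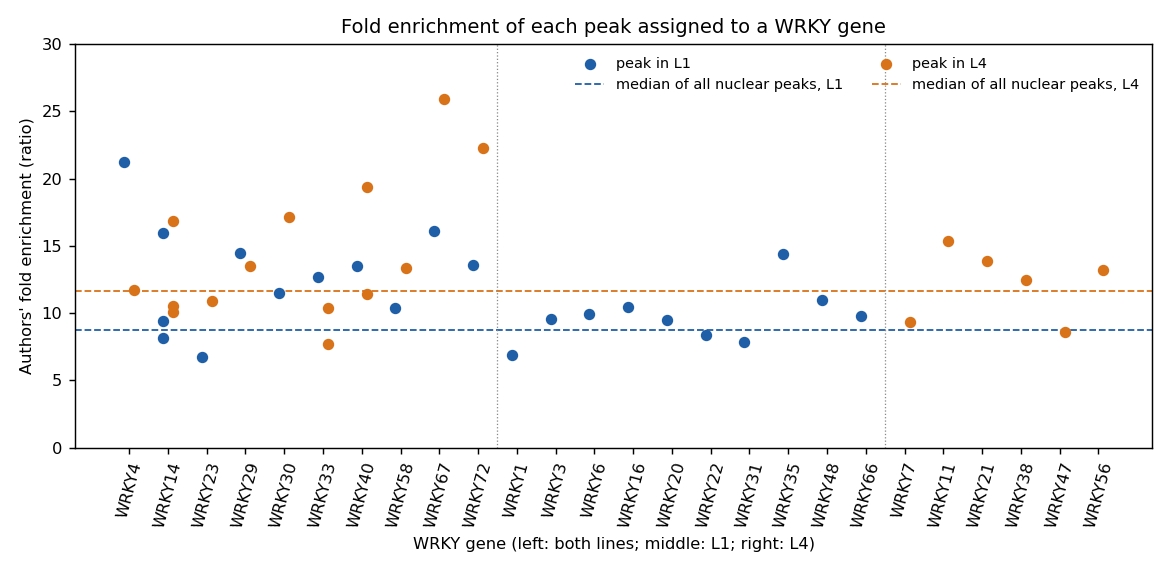
Authors' fold enrichment of every peak assigned to a WRKY gene, in L1 (blue) and L4 (orange), with dashed lines at the median of all nuclear peaks of each list (8.72 and 11.65). WRKY4 is the highest in L1 (21.25), and WRKY67 (25.93) and WRKY72 (22.3) are the highest in L4; genes with a peak in L1 alone have folds of 6.9 to 14.36, and those with a peak in L4 alone of 8.56 to 15.38.

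Promoter peaks found in one list were at WRKY6 and WRKY11. WRKY6 (AT1G62300), a regulator of senescence and phosphate transport, had an L1 peak on chromosome 1 at 23019314 to 23019527, with a fold of 9.92 and a summit 131 bp upstream of the 5′ end. WRKY11 (AT4G31550), which restrains basal resistance together with WRKY17, had an L4 peak on chromosome 4 at 15291593 to 15291859, with a fold of 15.38 and a summit 161 bp upstream. With WRKY40 and WRKY67 these were the 4 members with a promoter peak in either line (6.67%, against 12.9% of all genes). All 6 of their promoter peaks had folds above the median of their list.

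The other members with a peak in L1 had folds of 6.9 to 14.36. WRKY35 (AT2G34830), of group IIe like WRKY14, had the highest, 14.36, inside the gene on chromosome 2 at 14695239 to 14695483. WRKY16 (AT5G45050), whose protein joins a WRKY domain to an immune receptor and whose alleles affect tolerance to a nepovirus, had an inside peak with a fold of 10.44. WRKY31 (7.83) and WRKY1 (6.9) had inside peaks with folds below the median. WRKY48, a repressor of basal defence, had a peak 3837 bp upstream (fold 10.96), WRKY20 had one 1269 bp upstream (9.5), and WRKY66 had one downstream (9.79).

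The other members with a peak in L4 had theirs inside the gene. WRKY21 had a fold of 13.89, 613 bp from the 5′ end. WRKY7, which like other group IId members binds calmodulin, had a fold of 9.34, 669 bp from the 5′ end. WRKY56 (13.23) and WRKY38 (12.45), a repressor of basal defence that acts with WRKY62, were above the list's median. WRKY47 had the lowest −log10 q of the member peaks, 5.98, with a fold of 8.56.

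The assignment by nearest location left a peak on WRKY20 (AT4G26640) out of these counts. A site inside that gene on chromosome 4, at 13437626 to 13437867 in L1 and 13437609 to 13437861 in L4, was assigned to its neighbour AT4G26630. Its folds were 9.45 and 12.03, with summits 697 and 610 bp from the 3′ end of WRKY20. Among the 26 members whose bounds the lists give, this was the only peak on the gene or within 1000 bp upstream of it that had been assigned elsewhere. For the other 34 members the lists give no bounds, and such peaks were not looked for.

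Sites seen in both lines had higher median values than the others. In L1 the 11 member peaks that overlapped an L4 peak had a median fold of 13.51 and a median −log10 q of 22.91. The 11 that did not had medians of 9.57 and 11.22. In L4 the 11 overlapping peaks had a median fold of 13.53 against 11.39 for the other 9, and a median −log10 q of 17.03 against 10.99. All nuclear peaks showed the same order, with median folds of 9.92 and 8.16 in L1 and 12.45 and 10.9 in L4. Over all member peaks the median fold was 10.41 in L1 and 12.84 in L4. Folds above the median of the list were found for 17 of 22 member peaks in L1 and 12 of 20 in L4.

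The 34 members without an assigned peak were spread over all 7 groups. In group III, WRKY70, WRKY53, WRKY46, WRKY54, WRKY55, WRKY41 and WRKY62 had none, and 4 of 11 members (36.4%) had a peak in either line, where 35.8% of all genes had one. In group IIa, WRKY18 and WRKY60, the partners of WRKY40, had none. In group I, 6 of 12 members had a peak, and WRKY44 (TTG2, for trichomes and seed coat), WRKY10 (MINI3, for seed size), WRKY2, WRKY25, WRKY26 and WRKY32 did not. Group IIc had a peak at 3 of 13 members (23.1%): WRKY23, WRKY48 and WRKY56. Those without included WRKY75 and WRKY45, regulators of phosphate uptake, WRKY8, WRKY28, WRKY50, WRKY51, WRKY57, WRKY12, WRKY13 and WRKY43.

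Group IIe had a peak at 5 of 7 members (71.4%), all overlapping the gene: WRKY14, WRKY16, WRKY22, WRKY29 and WRKY35. WRKY27 and WRKY65 had none. In L1 all 5 were listed, where 25.7% of all genes had a peak. In L4 only WRKY14 and WRKY29 were, 2 of 7 members, where 24.4% of all genes had one, so the group's share rests mainly on L1. Group IIb had a peak at 4 of 8 members, with WRKY9, WRKY36, WRKY42 and WRKY61 lacking one. Group IId had a peak at 3 of 6, all in L4, with WRKY15, WRKY17 and WRKY39 lacking one. For comparison, 35.8% of all genes had a peak in either line, and with 3 to 13 genes in a group these shares were not tested.

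Of 27 genes that act with WRKY factors, 4 had an assigned peak in L1 (14.8%), 5 in L4 (18.5%) and 2 in both (7.41%). Among all genes these shares were 25.7%, 24.4% and 14.3%, and the differences were not tested. MEKK1, the kinase at the head of a defence MAP kinase cascade, had overlapping peaks upstream in both lines on chromosome 4, with folds of 10.96 and 12 and summits 1313 and 1323 bp from the 5′ end. SHB1, which binds the promoter of WRKY10 in seeds, had an inside peak in both lines with folds of 7.08 and 15.57. These folds were below the median of the list in L1 and above it in L4. SHB1 was also the sole gene of the 27 with a promoter peak, in L1 (fold 8.02, below the list's median).

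Of the 8 MAP kinase cascade genes, 1 had a peak in L1 (12.5%), 3 in L4 (37.5%) and 1 in both (12.5%). Beside MEKK1 these were MPK6 and MKK5, each with an inside peak in L4. The fold of MPK6, 12.45, was above the list's median and that of MKK5, 9.34, below it. Of 4 VQ-motif partners, 1 had a peak in L1 (25%) and 0 in L4. This was SIB1, which binds WRKY33, with L1 folds of 7.73 and 6.31, both below the list's median. Of 11 defence genes, mostly of the salicylate and camalexin pathways, 1 had a peak in L1 (9.09%), 1 in L4 (9.09%) and 0 in both. FRK1, a receptor kinase gene induced by flagellin, had a pair of L1 peaks with a fold of 8.35 each, below the list's median. NPR4, a salicylate receptor, had an L4 peak 1848 bp upstream with a fold of 22.79. ICS1, EDS1, PAD4, SAG101, NPR1, NPR3, PR1, PAD3 and CYP71A13 had no assigned peak.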

How the data were processed

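The data were peak lists of anti-GFP chromatin from YFP-LIMYB seedlings. Per the submitters' processing notes, MACS2 was used. Its settings, the aligner, the build and any pooling of replicates were not given in the sources used here. Per the file headers, the deposited pileup is a signal in fragments, the fold enrichment a ratio, and the q-value a −log10 value. The authors, as those headers show, assigned peaks to mRNA genes by nearest location. As the site on WRKY20 shows, a peak inside a gene could be assigned to its neighbour. Counts of peaks on genes, for members and for all genes, can miss such peaks. Positions are those of the files. No column names a sample, so shares stand beside those of all 27444 nuclear protein-coding genes of the RefSeq table (TAIR10.1, names, lengths and gene order only), and no test was run. Peaks counted as overlapping from 1 bp. WRKY groups are textbook classes. Members, lists and counts were chosen with earlier results of these data known. Named were members with a peak and genes of the pathway list with a peak in both lines or at the promoter; other pathway genes were named after their values were seen. The motif search was not run and no sequence is printed. Python 3.11.15, numpy 2.4.6, pandas 2.3.3 and matplotlib 3.10.9 were used, and window and overlap steps were tested on simulated data.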

Additional observations from a re-analysis of the deposited data

How the results depend on the processing

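No paired analysis was possible because the lists hold no columns per replicate, which also meant that none could be omitted in turn. Of 31 other settings of threshold, window or overlap, 29 left the count of members within 1.5 times. The exceptions were promoter peaks with the window of 2000 bp upstream to 200 bp downstream, which gave 5 members in L1 and 5 in L4 in place of 3 in each, against 11.4% and 10.4% of all genes. With folds above the list's median, 16 members had an assigned peak in L1, 12 in L4 and 8 in both. These were 26.7%, 20% and 13.3% of members, against 14.8%, 14.2% and 7.03% of all genes. The rule of 1.5 times was applied to counts of members only, and the shares of all genes beside them also moved. For assigned peaks in both lines, 16.7% of members stood beside 14.3% of all genes. With peaks overlapping the gene, 13.3% stood beside 5.97%. The share of nuclear peaks inside genes depended on the peaks counted, as given above. Depth per sample is unknown. A member without a peak had none assigned to it at the authors' threshold, which does not show that LIMYB is absent. A peak lying on such a member could also have been assigned to a neighbour, as at WRKY20.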
